A study of Mus musculus with 6 samples.

Results

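The integrins and CD44 of splenic regulatory T cells (Treg) are described here through 10 genes of the deposited table, the integrin α chains Itgae, Itgal, Itga4, Itga6 and Itgav, the β chains Itgb1, Itgb2, Itgb3 and Itgb7, and Cd44. They are picked by gene symbol and make up 10 of the 29199 genes in the table. All 10 passed the filter on low counts. The least abundant, Itgb3, still had between 8279 and 11134 estimated counts per library.

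Total RNA was sequenced from 6 libraries of Treg, 3 labelled as Treg transferred with wild-type (WT) conventional CD4+ T cells (Tconv) and 3 as Treg transferred with HP1α knockout (KO) Tconv. The Treg were WT in both groups. They came from B6 Foxp3-Thy1.1 mice and had been expanded ex vivo with 500 IU/mL IL-2, 0.1 ng/mL TGF-β1 and anti-CD3/CD28 beads for 3 days, then for 5 to 7 days without beads. The Tconv were naive CD4+ cells (CD44-/low), and the KO Tconv lacked HP1α, a heterochromatin protein, through a germline deletion made with CMV-cre and so in every cell of the donor. Hosts of both groups were irradiated B6 mice given T and NK cell-depleted marrow from B6 and semi-allogeneic B6D2F1 mice, so the transferred cells shared the host with regrowing donor marrow. The WT and KO donors of the Tconv were littermates 6 to 12 weeks old, on a mixed genetic background. Treg were sorted from the spleen 3 weeks after the graft as Thy1.1+CD4+ cells that carried CD45.2 and H-2Kb but neither CD45.1 nor H-2Kd. Neither CD44 nor an integrin was used in that sort. The groups are called the WT Tconv and the KO Tconv group below, and their libraries WT 1, WT 2 and WT 3 and KO 1, KO 2 and KO 3, where WT and KO stand for the genotype of the Tconv and never for that of the Treg. The labels do not say whether the replicates came from separate animals or pools, so p-values measure only the spread between these libraries.

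An integrin is a pair of one α and one β chain, and the level of a pair at the surface can be limited by either. In T cells Itgal pairs with Itgb2 to form LFA-1, which binds ICAM proteins on other cells. Itga4 pairs with Itgb7 to bind MAdCAM on gut vessels, or with Itgb1 to bind VCAM on inflamed endothelium and marrow stroma, and Itgae (CD103) pairs with Itgb7 to hold T cells to E-cadherin on epithelium. Itgav joins Itgb1, Itgb3 or Itgb8 to bind matrix and latent TGF-β, and Itga6 with Itgb1 binds laminin. CD44 is no integrin but a receptor for hyaluronan, and it marks T cells that have met antigen.

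Promoters are shown for Itgae, Itgb7, Itgav and Cd44, because the last 3 are the members that one of the tests below called and Itgae is an α partner of Itgb7. Each run holds 300 bases of GRCm39, 250 before and 50 from the start of the canonical transcript, 5′ to 3′ on the strand of the gene. The runs lie at chr11:72981159-72981458 (plus strand) for Itgae, chr15:102140330-102140629 (minus strand) for Itgb7, chr2:83554153-83554452 (plus strand) for Itgav and chr2:102731961-102732260 (minus strand) for Cd44. Capitals mark a Runx motif (TGTGGT) in Itgae and a GC box (GGGCGG) in Cd44.
Itgae: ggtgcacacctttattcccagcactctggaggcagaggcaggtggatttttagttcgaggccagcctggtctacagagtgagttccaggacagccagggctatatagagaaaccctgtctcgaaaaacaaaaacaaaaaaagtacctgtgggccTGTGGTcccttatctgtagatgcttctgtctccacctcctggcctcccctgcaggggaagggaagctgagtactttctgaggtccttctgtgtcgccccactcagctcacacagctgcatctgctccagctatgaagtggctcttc
Itgb7: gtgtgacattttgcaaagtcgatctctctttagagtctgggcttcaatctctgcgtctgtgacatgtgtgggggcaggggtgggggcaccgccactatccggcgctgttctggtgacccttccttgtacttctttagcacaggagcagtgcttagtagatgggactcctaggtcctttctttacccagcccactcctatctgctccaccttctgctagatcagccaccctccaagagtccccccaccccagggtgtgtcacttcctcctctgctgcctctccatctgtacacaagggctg
Itgav: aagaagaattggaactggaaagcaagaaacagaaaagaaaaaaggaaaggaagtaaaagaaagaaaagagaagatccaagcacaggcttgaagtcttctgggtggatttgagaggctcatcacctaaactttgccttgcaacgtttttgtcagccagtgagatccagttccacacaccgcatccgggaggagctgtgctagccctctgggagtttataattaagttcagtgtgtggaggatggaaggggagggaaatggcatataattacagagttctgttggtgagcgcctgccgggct
Cd44: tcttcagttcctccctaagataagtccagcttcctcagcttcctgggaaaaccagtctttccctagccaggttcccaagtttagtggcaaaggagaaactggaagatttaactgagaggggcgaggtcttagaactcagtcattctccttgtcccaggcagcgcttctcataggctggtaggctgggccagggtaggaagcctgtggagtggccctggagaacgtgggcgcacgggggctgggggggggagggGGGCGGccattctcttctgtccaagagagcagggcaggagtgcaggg

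5 motifs were searched on both strands in the promoters of all 10 members. The Runx motif TGTGGT was found in 1 member, Itgae, 96 bases before the start, and in 15.3% of 21770 promoters of protein-coding genes of the same length. The GC box GGGCGG, which Sp1-like factors bind, was found in 5 members (Itga4, Itga6, Itgb1, Itgb3 and Cd44) and in 42.5% of all promoters. The E box CACGTG was found in Itgb2 and in 7.81% of all promoters. The AP-1 motif TGACTCA and the Smad motif GTCTAGAC were found in none of the 10 windows, and in 4.70% and 0.266% of all promoters. None of the 5 motifs was found in the Itgb7 or the Itgav window. A match is only a match of letters. The Itga6 and Itgb3 windows were the richest in CpG dinucleotides among the members, with 27 and 19 against a median of 11 over all promoters. The Itgae window held 3, Itgb7 5, Itgav 5 and Cd44 6.

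Library totals ranged from 87421755 to 119078882 estimated counts, and every member was counted deeply in each of them. The labelled cell type was checked by its markers: Cd4 lay between 707 and 851 CPM, Foxp3 between 158 and 254 CPM and Ikzf2 between 1484 and 1930 CPM in the 6 libraries. KO 2 was the lowest library for 4 of the 6 T cell and Treg markers, with Cd4 at 707 CPM, Foxp3 at 158 CPM (200 to 254 CPM in the other libraries), Il2ra at 124 CPM (159 to 201 CPM) and Cd3e at 151 CPM (185 to 221 CPM). The 6 T cell and Treg markers together summed to 3966 to 4577 CPM in the WT Tconv group and to 3801.5 to 4060 CPM in the KO Tconv group. Of these, Ctla4, an inhibitory receptor of Treg, was at 1243, 1322 and 1093 CPM against 1029, 1047 and 806 CPM, with no overlap. For Cd3e, Cd4, Foxp3, Il2ra and Ikzf2 the groups overlapped. The part of these markers in the results below was not tested. WT 3 stood apart by RNA of other cells. Its 6 red cell markers summed to 5501 CPM against 370 to 688 CPM in the other libraries, and its 7 neutrophil markers to 1818 CPM against 41.0 to 225 CPM. KO 2 also stood apart in several members, as given below.

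Per kb of merged exons, Itgb7 was the most abundant member, at 371 CPM per kb ± 50.5 (SD, n = 6) over all libraries. Itgb2 followed at 195 ± 12.8, Itgae at 91.8 ± 6.80, Itgb1 at 72.1 ± 10.6, Itgal at 65.9 ± 4.41, Cd44 at 39.4 ± 4.91, Itga4 at 28.6 ± 2.29, Itgav at 15.3 ± 3.51, Itgb3 at 14.8 ± 1.79 and Itga6 at 13.1 ± 1.25 CPM per kb. The top and bottom levels differed by 28.45-fold. The order of the first 3 held in every library, since the ranges of Itgb7, Itgb2, Itgae and Itgb1 did not overlap. Itgb1 and Itgal were not separated, with Itgb1 the higher in 5 of 6 libraries, and the ranges of Itgav, Itgb3 and Itga6 overlapped as well. With the canonical transcript as the length, the first 5 stood in the same order by the mean over all libraries. Itgb1 was then above Itgal in 4 of 6 libraries, with means of 84.7 against 86.0 CPM per kb in the KO Tconv group. Itga4 and Cd44 were close (48.2 ± 3.85 and 47.2 ± 5.89 CPM per kb). Itga4 was the higher of this pair in 3 of 6 libraries, with group means of 45.1 against 52.0 for Cd44 in the WT Tconv group and 51.2 against 42.5 CPM per kb in the KO Tconv group. Itga6 was then at 33.7 ± 3.23 CPM per kb, against 25.5 ± 5.86 for Itgav and above it in 6 of 6 libraries, and Itgb3 was the lowest at 17.0 ± 2.05 CPM per kb. The order of these lower members thus depends on the gene model. The β chains Itgb7 and Itgb2 were thus more abundant than every α chain in the list, as the plot of levels per length shows.

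**Figure D1:**
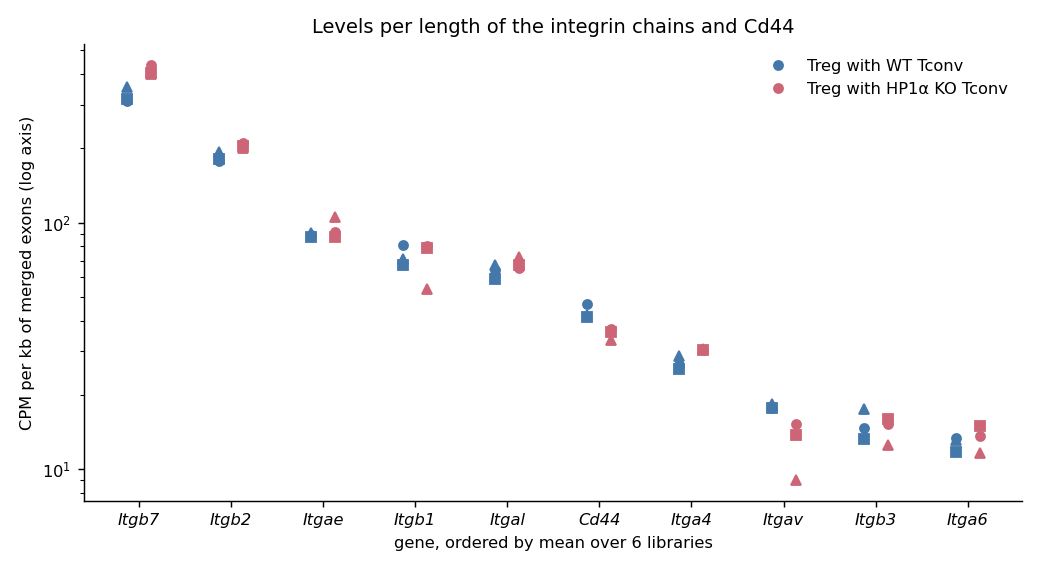
Level of each member in CPM per kb of merged exons (log axis), genes ordered by the mean over 6 libraries, with blue for the WT Tconv group, red for the KO Tconv group, and circles, triangles and squares for replicates 1, 2 and 3. Itgb7 lies above Itgb2 in every library, and Itgav, Itgb3 and Itga6 share the bottom.

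The comparison asked whether Treg that had shared a host with HP1α KO Tconv differed from Treg that had shared it with WT Tconv. By the quasi-likelihood test of edgeR with Benjamini-Hochberg adjustment over all genes, 0 of 10 members had an adjusted p-value under 0.05, against 0 of 18321 genes in all (0% called). At an unadjusted p under 0.05 there were 4 members, Itga4 and Itgb7 with higher values in the KO Tconv group and Itgav and Cd44 with lower values, against 2656 genes in all (14.5% called) and 23.1% of the genes at least as abundant as the lowest member. limma-voom called 0 members and 0 genes. DESeq2 called 3 of 10 members at an adjusted p under 0.05, Itgb7 up and Itgav and Cd44 down, against 526 of 12097 genes (4.35% called). Among the genes at least as abundant as the lowest member, DESeq2 called 7.34%. With the GC content of the exons as an offset, DESeq2 called 0 of 10 members and 292 of 13758 genes (2.12% called). The groups did not overlap for 5 members, against 23.0% of all genes tested, and against 33.4% of the genes at least as abundant as the lowest member. These 5 were Itga4, Itgb2 and Itgb7 with all values higher in the KO Tconv group, and Itgav and Cd44 with all values lower. The median log2 fold change of the members was 0.08, against -0.0085 over all genes tested. In bulk RNA, fewer cells of a type and less RNA per cell cannot be told apart.

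**Figure D2:**
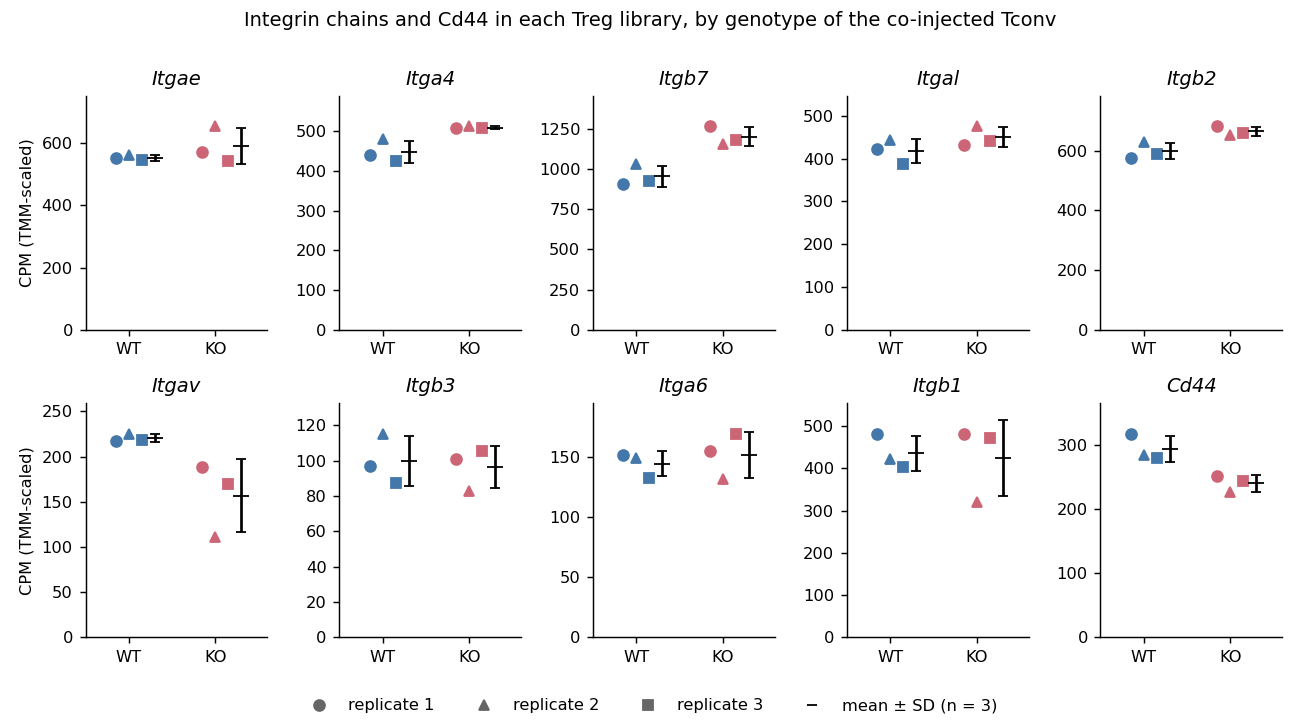
CPM (TMM-scaled, linear axes from 0) of each member in each library, with blue for the WT Tconv group (WT), red for the KO Tconv group (KO), a shape for each replicate number, and the mean ± SD of 3 libraries in black. Itgb7 is higher and Cd44 and Itgav are lower in every KO library than in any WT library. KO 2 is the lowest point for Itgav, Itgb1, Itgb3, Itga6 and Cd44.

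Itgb7, the β chain shared by both gut and epithelial receptors (ENSMUSG00000001281, GRCm39 chromosome 15, 102124429 to 102140379, minus strand), was the member with the smallest p-value in the main edgeR fit. With the GC offset that member was Itga4, and with the replicate number as a block, without WT 3 or without KO 1 it was Cd44. Itgb7 was at 907, 1032 and 925 CPM in WT 1, WT 2 and WT 3, and at 1268, 1158 and 1179 CPM in the KO Tconv group. Every value of the KO Tconv group lay above every value in the WT Tconv group. The group means ± SD (n = 3 each) were 954 ± 67.6 CPM and 1201 ± 58.2 CPM, or 1.26-fold. On the log2 scale this was 0.33 (SE 0.0803, 95% interval 0.15 to 0.52). The edgeR p was 0.00308 before and 0.209 after adjustment over all genes, and the adjusted p of DESeq2 was 0.0173. The DESeq2 call was lost without WT 1 (log2 fold change 0.29, adjusted p = 0.0960), without WT 3 (0.31, adjusted p = 0.109), and with the GC offset (0.26, adjusted p = 0.161).

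Itgae, the α chain of the E-cadherin receptor and a common marker of effector Treg (ENSMUSG00000005947, chromosome 11, 72981409 to 73039917, plus strand), was at 552, 562 and 545 CPM in the WT Tconv group. In the KO Tconv group it was at 571, 655 and 544 CPM. The groups overlapped, and the values in the WT Tconv group were among the tightest of the members, with a coefficient of variation of 1.57% against 9.85% in the KO Tconv group. The log2 fold change was 0.09 (95% interval -0.10 to 0.28, edgeR adjusted p = 0.642), and it was 0.01 without KO 2 and 0.15 without KO 3.

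Itga4, the α chain that can pair with Itgb7 or Itgb1 (ENSMUSG00000027009, chromosome 2, 79085660 to 79163467, plus strand), was at 440, 480 and 425 CPM in the WT Tconv group. In the KO Tconv group it was at 508, 514 and 509 CPM, a spread of 3.13 CPM (SD, n = 3) around 510 CPM. All 3 of these lay above all 3 of the other group. The log2 fold change was 0.19 (SE 0.0700, 95% interval 0.03 to 0.35), with an edgeR p of 0.0284 before and 0.289 after adjustment and a DESeq2 adjusted p of 0.214. Of its exonic bases 20.8% lie opposite the antisense gene Cerkl, which held at most 431 counts in a library against 42271 or more for Itga4.

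The ratios of partner chains were compared within each library, where scaling of the library cancels but a trend with GC content, described further below, does not. 8 ratios were tested by exact permutation, two-sided, where groups of 3 cannot reach a p below 0.1. The log2 ratio of Itga4 to Itgb7, both per kb, was -3.57, -3.63 and -3.65 in the WT Tconv group and -3.85, -3.70 and -3.74 in the KO Tconv group. These groups did not overlap, and the difference of -0.15 gave p = 0.1 (exact permutation test) and 0.2 after adjustment over the 8 ratios. When the GC trend of each library was taken out of both chains, this difference was 0.0079 with overlapping groups (p = 1, exact permutation test). The log2 ratio of Itgae to Itgb7 was -1.82, -1.98 and -1.86 against -2.25, -1.92 and -2.22, a difference of -0.24 with p = 0.2 (exact permutation test), and of -0.16 without the GC trend. KO 2 lay within the range of the other group for that ratio. For Itgb7 over Itgb1, the β chains that compete for Itga4, the log2 ratio was 1.95, 2.33 and 2.24 against 2.44, 2.90 and 2.36, with all values higher in the KO Tconv group. That difference of 0.39 also gave p = 0.1 (exact permutation test, 0.2 adjusted), and it was 0.23 without KO 2. Without the GC trend it was 0.27, with overlapping groups (p = 0.2, exact permutation test).

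**Figure D3:**
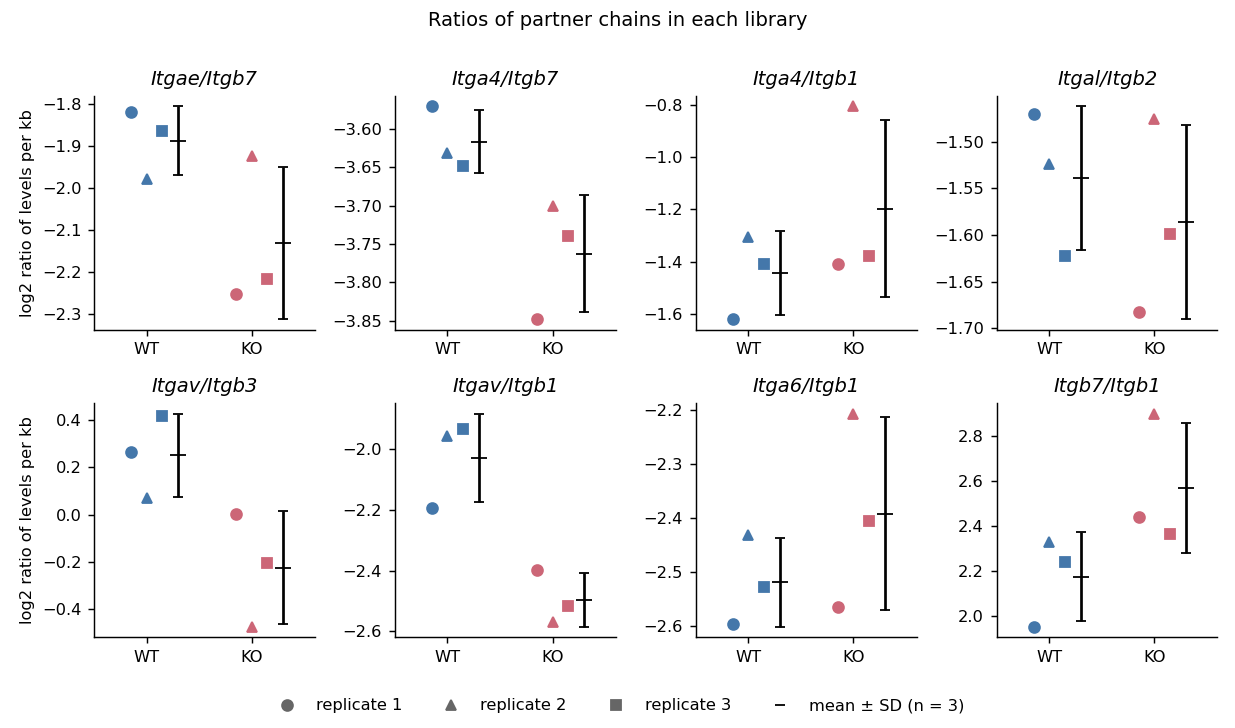
log2 ratio of the levels per kb of merged exons for 8 pairs of chains in each library (linear axes that do not start at 0), with colours and shapes as in the plot of CPM and the mean ± SD of 3 libraries in black. The groups do not overlap for Itga4/Itgb7, Itgav/Itgb3, Itgav/Itgb1 and Itgb7/Itgb1, and overlap for the other 4 ratios. The values are not corrected for GC content, and with that trend taken out Itgav/Itgb1 alone is without overlap.

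Itgal and Itgb2 are the chains of LFA-1. Itgal (ENSMUSG00000030830, chromosome 7, 126895432 to 126934320, plus strand) was at 423, 444 and 388 CPM in the WT Tconv group and at 431, 476 and 442 CPM in the KO Tconv group, and the groups overlapped. Its log2 fold change was 0.11 (95% interval -0.07 to 0.28, edgeR adjusted p = 0.567), and it was 0.05 without WT 3, 0.06 without KO 2 and 0.16 without WT 2. Itgb2 (ENSMUSG00000000290, chromosome 10, 77366086 to 77401542, plus strand) was at 578, 629 and 588 CPM against 683, 653 and 660 CPM, with no overlap. Its log2 fold change was 0.15 (95% interval -0.0023 to 0.31), with an edgeR p of 0.0528 before and 0.352 after adjustment and a DESeq2 adjusted p of 0.316. It was 0.14 without WT 3 and 0.17 without KO 2. The log2 ratio of Itgal to Itgb2 was -1.47, -1.52 and -1.62 against -1.68, -1.48 and -1.60, so the pair overlapped between the groups (difference -0.05, p = 0.6, exact permutation test). Itgb2 is also made by myeloid cells, and WT 3, which held the most neutrophil and macrophage RNA, gave 588 CPM, between the other values of its group. The part of myeloid RNA in the Itgb2 values was not tested.

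Itgav, the α chain of receptors that bind matrix and latent TGF-β (ENSMUSG00000027087, chromosome 2, 83554403 to 83637260, plus strand), had the fold change furthest from 0 among the members when all 6 libraries were used, whereas without KO 2 that was Itgb7 (log2 fold change 0.36 against -0.30 for Itgav). It was at 218, 225 and 218 CPM in the WT Tconv group, a coefficient of variation of 1.97%. In the KO Tconv group it was at 189, 111 and 170 CPM, a coefficient of variation of 25.8%. Every value in the KO Tconv group was below every value in the WT Tconv group, and KO 2 was the lowest. The log2 fold change was -0.49 (SE 0.189, 95% interval -0.95 to -0.03), or 0.711-fold, with an edgeR p of 0.0392 before and 0.319 after adjustment and a DESeq2 adjusted p of 0.0415.

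Without KO 2, the adjusted p of DESeq2 for Itgav was 0.00115. The DESeq2 call was lost when any WT Tconv library was left out (log2 fold change -0.50 to -0.48, adjusted p = 0.187 to 0.237). It was also lost without KO 3 (-0.56, adjusted p = 0.0993) and with the GC offset (-0.43, adjusted p = 0.102). In KO 2, Itgav deviated by -0.69 on the log2 scale from the mean of the other libraries of its group, and 2.10% of the genes at least as abundant as the lowest member lay further below. Itgb1 deviated by -0.57, Itgb3 by -0.31 and Itga6 by -0.30 in that library, whereas Itgae deviated by 0.23 and Itga4 by 0.02. Msn, which links Cd44 to actin and is no member, deviated by -1.05. Lrrc32 (GARP), which anchors latent TGF-β on Treg and is named here after its values were seen, deviated by -1.10, at 61.1 CPM in KO 2 against 142 and 120 CPM in the other libraries of its group. What set this library apart was not tested.

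Itgb1, the β chain with the most partners (ENSMUSG00000025809, chromosome 8, 129411876 to 129460618, plus strand), was at 482, 423 and 403 CPM in the WT Tconv group and at 481, 320 and 472 CPM in the KO Tconv group. Its log2 fold change was -0.04 (95% interval -0.43 to 0.35, edgeR adjusted p = 0.931). It was 0.13 without KO 2, 0.05 without WT 1 and 0.0075 with the GC offset, so its sign is not settled. Itgb3, the β chain of the vitronectin receptor and of platelet fibrinogen receptors (ENSMUSG00000020689, chromosome 11, 104498826 to 104561302, plus strand), was at 97.2, 115 and 87.4 CPM against 101, 82.9 and 105 CPM. Its log2 fold change was -0.05 (95% interval -0.34 to 0.24, edgeR adjusted p = 0.873), and it was 0.04 without KO 2 and 0.0746 without WT 2. Itga2b, the platelet partner of Itgb3, was at 2.65 to 3.80 CPM in the 6 libraries, and Pf4, a platelet granule gene, was at or below 0.479 CPM.

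Itga6, the laminin receptor chain (ENSMUSG00000027111, chromosome 2, 71575960 to 71689757, plus strand), was at 152, 149 and 133 CPM against 155, 132 and 170 CPM. Its log2 fold change was 0.07 (95% interval -0.16 to 0.30, edgeR adjusted p = 0.777), and -0.01 without KO 3. For Itgb1, Itgb3 and Itga6 the groups overlapped, and the intervals leave room for differences in either direction. The log2 ratio of Itgav to Itgb3 was 0.26, 0.07 and 0.42 in the WT Tconv group and 0.0038, -0.47 and -0.21 in the KO Tconv group, and that of Itgav to Itgb1 was -2.19, -1.95 and -1.93 against -2.40, -2.57 and -2.52. In both ratios all values were lower in the KO Tconv group, with differences of -0.48 and -0.47 and p = 0.1 (exact permutation test, 0.2 adjusted). Without the GC trend the differences were -0.40 and -0.46, and the groups then overlapped for Itgav to Itgb3 (p = 0.2, exact permutation test) but not for Itgav to Itgb1 (p = 0.1, exact permutation test, 0.533 adjusted). The Itgav to Itgb1 ratio of KO 2, a library low for both chains, lay close to those of the other libraries of its group. The ratios of Itga4 and of Itga6 to Itgb1 differed by 0.25 and 0.13 with overlapping groups (p = 0.4 each, exact permutation test), and by 0.05 and 0.03 without KO 2.

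Cd44, the hyaluronan receptor (ENSMUSG00000005087, chromosome 2, 102641486 to 102732010, minus strand), was at 318, 285 and 279 CPM in the WT Tconv group. It was at 251, 226 and 243 CPM in the KO Tconv group, where every value was below every value of the other group. The group means ± SD (n = 3 each) were 294 ± 20.8 CPM and 240 ± 12.8 CPM, or 0.817-fold. On the log2 scale this was -0.29 (SE 0.0769, 95% interval -0.47 to -0.12). The edgeR p was 0.00504 before and 0.209 after adjustment, and the DESeq2 adjusted p was 0.0423. The DESeq2 call was lost without any one WT Tconv library (log2 fold change -0.33 to -0.23, adjusted p = 0.0659 to 0.164). It was also lost without KO 3 (-0.30, adjusted p = 0.0751) and with the GC offset (-0.24, adjusted p = 0.181). KO 2 was the lowest library for Cd44, and without it DESeq2 gave a log2 fold change of -0.25 (adjusted p = 0.0220). The table gives 1 value per gene, so the spliced forms of Cd44 cannot be told apart.

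**Figure D4:**
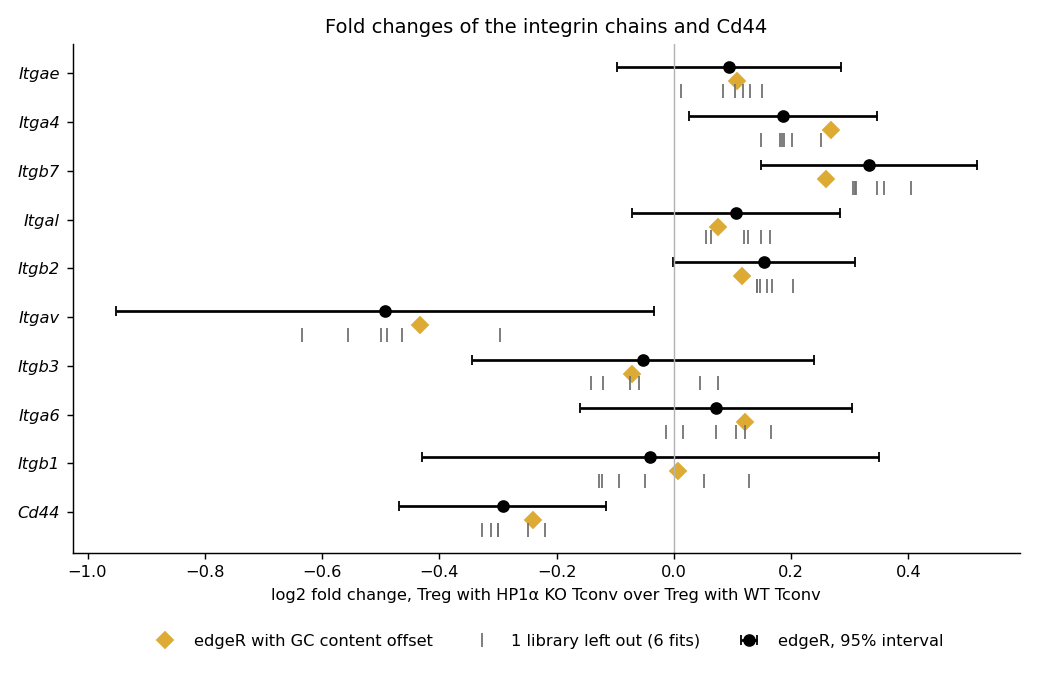
log2 fold change of each member, KO Tconv over WT Tconv group, from edgeR with its 95% interval (black), with an offset for GC content (yellow), and with each of the 6 libraries left out in turn (grey ticks). The intervals of Itgb7 (0.15 to 0.52), Itga4, Itgav and Cd44 do not reach 0, and the ticks of Itgb1, Itgb3 and Itga6 fall on both sides of 0.

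Over all genes with a known GC content, the log2 fold change went up with the GC content of the exons, from a median of -0.09 in the lowest of 5 equal bins of GC content to 0.07 in the highest. The Spearman correlation between fold change and GC content was 0.19 over these 18189 genes. It was stronger, 0.39, over the 2376 of them at least as abundant as the lowest member, and all members are among these. Itgb7 had the highest GC content of the members, 57.7%, and Cd44 (45.1%) and Itgav (43.9%) were in the lower part of the range. Their fold changes were nearer to 0 with the GC offset, at 0.26, -0.24 and -0.43. Itga4 had the lowest GC content of the members, 41.5%, and its fold change was larger with the offset, 0.27. For this value edgeR gave an adjusted p of 0.301 and DESeq2 an adjusted p of 0.0849. How much of each difference goes with GC content was not tested beyond this offset.

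**Figure D5:**
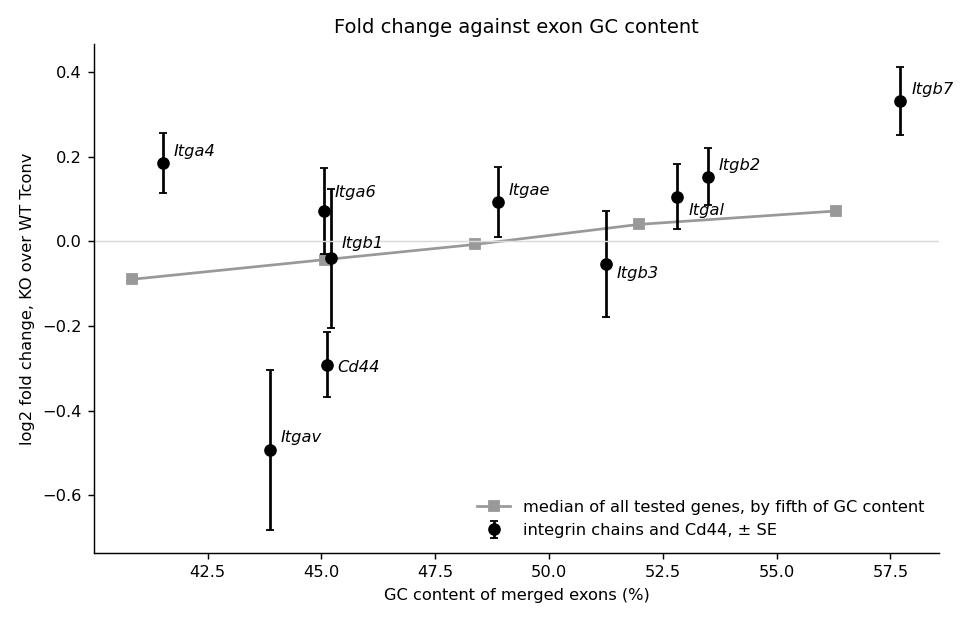
log2 fold change (± SE) of each member against the GC content of its merged exons in percent, with the median log2 fold change of all tested genes in each of 5 equal bins of GC content in grey. Itgav and Cd44 are below the grey line by more than their SE, and Itga4 is above it at the lowest GC content of the members. Itgb7, at 57.7%, lies past the right end of the line at 56.3%. It is above the last point of the line by more than its SE.

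The genes whose pattern over the 6 libraries was most like that of Itgae and Cd44 were found by the root mean square difference of centred log2 CPM among 13248 other genes. For Itgae these were Atp5j2, Phyh and Shc1, with differences of 0.0168, 0.0176 and 0.0196. For Cd44 they were Crtc2, Ppig and Hook1, with differences of 0.0381, 0.0387 and 0.0387. Crtc2, as an example, was at 36.7, 35.1 and 34.1 CPM in the WT Tconv group and at 29.9, 26.1 and 28.3 CPM in the KO Tconv group.

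Of 17 other integrin chains, 13 were tested in edgeR and 0 passed its threshold. DESeq2 called 0, but it gave no adjusted p for Itga9, Itgad and Itgax. The median log2 fold change of the 13 chains was -0.06 against -0.0085 over all genes tested. At an unadjusted p under 0.05 there was 1, with higher values, against 14.5% of all genes in either direction and 1279 of 18321 with higher values. Itgb8, the β chain with which Treg Itgav activates latent TGF-β, was at 124, 120 and 120 CPM against 107.4, 133 and 96.9 CPM, with overlapping groups (log2 fold change -0.11, edgeR adjusted p = 0.680). Itga7, a laminin receptor chain, was at 9.48, 10.2 and 9.07 CPM against 12.3, 12.5 and 12.1 CPM, with no overlap (log2 fold change 0.36, edgeR adjusted p = 0.209). Itga1, a collagen receptor chain, and Itgb5, a partner of Itgav, had log2 fold changes of 0.24 and -0.22 (edgeR adjusted p = 0.6995 and 0.444). Itga5, the fibronectin receptor chain, was at 1.61 to 3.43 CPM.

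Itgam and Itgax, the myeloid partners of Itgb2, were at 34.8 and 2.40 CPM in WT 3, and at most at 9.76 and 0.668 CPM in the other libraries. All 7 neutrophil markers and all 6 macrophage and monocyte markers had counts, and the latter summed to 15.97 to 207 CPM in the WT Tconv group and 19.5 to 52.7 CPM in the KO Tconv group. The 6 platelet markers summed to 3.28 to 5.85 CPM and 3.66 to 4.20 CPM, and the 6 dendritic cell markers to 12.2 to 23.4 CPM and 8.58 to 16.1 CPM. The B cell markers summed to 14.4 to 25.8 CPM and 16.5 to 21.8 CPM, and those of CD8 T and NK cells to 14.3 to 20.1 CPM and 14.6 to 17.5 CPM. Without WT 3, the edgeR log2 fold change of Itgb7 was 0.31, that of Itgav -0.50, that of Itgb2 0.14 and that of Cd44 -0.33.

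Of 30 genes that switch integrins on or tie them to the cytoskeleton, 29 were tested and 0 passed the edgeR threshold. At an unadjusted p under 0.05 there were 4 with higher and 2 with lower values, or 6 of 29, against 14.5% of all genes and 23.1% of the genes at least as abundant as the lowest member. The median log2 fold change was 0.01, against -0.0085 over all genes tested. Rap1b, a small GTPase that activates LFA-1, was at 540, 593 and 559 CPM against 486, 436 and 415 CPM with no overlap, and it was the 1 gene of the list called by DESeq2, against 4.35% of all genes (log2 fold change -0.34, edgeR adjusted p = 0.209, DESeq2 adjusted p = 0.0174). That call was lost with the GC offset (log2 fold change -0.29, adjusted p = 0.0855), without WT 2 (-0.31, adjusted p = 0.113) and without WT 3 (-0.35, adjusted p = 0.0803). Rap1a, its close relative, had a log2 fold change of -0.21 (edgeR adjusted p = 0.255). Fermt3 (kindlin-3), which binds β chain tails, was at 294, 294 and 297 CPM against 325, 366 and 328 CPM (log2 fold change 0.20, edgeR adjusted p = 0.258). Skap1 and Parvg, adaptors of T cell adhesion, had log2 fold changes of 0.24 and 0.23 with no overlap (edgeR adjusted p = 0.244 and 0.240). Tln1 (talin), which opens the integrin head through the β tail, was at 957, 1028.5 and 1025 CPM against 1113, 918 and 1270 CPM, with overlap.

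Of 16 ligands, 13 were tested in edgeR and 0 passed its threshold. Their median log2 fold change was -0.20, against -0.0085 over all genes tested. How far genes with low counts set this median was not tested. At an unadjusted p under 0.05 there was 1 gene, with higher values, against 14.5% of all genes in either direction and 1279 of 18321 with higher values. DESeq2 called 0, but it gave no adjusted p for Madcam1, Cdh1, F11r, Spp1 and Has3. Icam1, a ligand of LFA-1 that T cells also make, was at 199, 176 and 215 CPM against 197, 282 and 159 CPM, with overlap. Icam2, another ligand of LFA-1, had a log2 fold change of 0.31 (edgeR adjusted p = 0.230), and Tgfb1 one of -0.19 (edgeR adjusted p = 0.469). Cdh1 (E-cadherin), the ligand of Itgae with Itgb7, was at or below 0.957 CPM and Vcam1 at or below 5.93 CPM, both highest in WT 3. Has3, a hyaluronan synthase, was at or below 0.414 CPM.

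Of 11 genes that link Cd44 to actin, splice it or shed it, 9 were tested and 0 passed either threshold. At an unadjusted p under 0.05 there were 2, with lower values. In either direction, 14.5% of all genes and 23.1% of the genes at least as abundant as the lowest member were under it. With lower values these were 1377 of 18321 and 360 of 2378 genes. The groups did not overlap for 4 of the 9, all with lower values. In either direction they did not overlap for 23.0% of all genes tested and 33.4% of those abundant genes. With lower values this held for 11.6% of all genes tested and 494 of 2378 abundant genes. The median log2 fold change of the 9 genes was -0.14, against -0.0085 over all genes tested. Adam10, a sheddase of Cd44, was at 176, 177 and 172 CPM against 153, 140 and 163 CPM with no overlap (log2 fold change -0.20, edgeR adjusted p = 0.263). Nf2 (merlin), which binds the tail of Cd44, had a log2 fold change of -0.22 (edgeR adjusted p = 0.284). Msn (moesin) was at 710, 746 and 679 CPM against 747, 377 and 813 CPM, where KO 2 alone was low. Ezr (ezrin) was at 269, 285 and 310 CPM against 276, 277 and 261 CPM, with overlap, and Mmp14, a protease, had a log2 fold change of 0.56 at 2.07 to 4.16 CPM (edgeR adjusted p = 0.354).

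All 10 other adhesion and homing receptors were tested and 0 passed the edgeR threshold. At an unadjusted p under 0.05 there were 3, all with higher values. In either direction, 14.5% of all genes and 23.1% of the genes at least as abundant as the lowest member were under it. With higher values these were 1279 of 18321 and 190 of 2378 genes. The median log2 fold change of the 10 receptors was 0.10, against -0.0085 over all genes tested. Selplg (PSGL-1), the ligand of selectins, was at 323, 371 and 332 CPM against 427, 398 and 441 CPM with no overlap (log2 fold change 0.30, edgeR adjusted p = 0.209). It was the 1 gene of the list called by DESeq2 (adjusted p = 0.0382, against 4.35% of all genes called). That call was lost with the GC offset (log2 fold change 0.26, adjusted p = 0.140). It was also lost without WT 1, WT 3, KO 1 or KO 3 (0.26 to 0.29, adjusted p = 0.0847 to 0.169). Cd48, an adhesion partner of Cd2, had a log2 fold change of 0.26 (edgeR adjusted p = 0.242) and no overlap. With the GC offset, DESeq2 called Cd48 and Cd226, an activating receptor named here after its values were seen (adjusted p = 0.0459 and 0.0134), against 2.12% of all genes. edgeR with that offset called neither (adjusted p = 0.292 for each), and the CPM of Cd226 overlapped between the groups. Cd69, which holds T cells in tissue, and Ccr7, which guides them to lymph nodes, had log2 fold changes of -0.14 and -0.31 (edgeR adjusted p = 0.562 and 0.352).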

How the data were processed

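The authors prepared stranded total RNA libraries, aligned the reads with STAR to GRCm39 and estimated counts per gene with Salmon. The deposited values are these estimated counts, not normalized and held as whole numbers, and 0 per-sample columns were left unused. Estimated counts share ambiguous reads by a model: a stretch of Itga6 (326 bases) and one of Itgb2 (228 bases) recur in Gm29397 and Gm14699, and the strand setting of the counting is not given in the sources used here. Table rows without a symbol numbered 64 and were kept.

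The table was fitted whole with edgeR 4.0.16 (glmQLFit with robust = TRUE, glmQLFTest, TMM, filterByExpr, group alone) in R 4.3.3, with Benjamini-Hochberg adjustment over the 18321 genes kept and a threshold of 0.05. Fold changes are KO Tconv over WT Tconv group. CPM are counts over the TMM-scaled total times 1e6, and marker genes and their sums, Pf4 and the Treg markers included, use the total without TMM. DESeq2 1.42.0, limma-voom 3.58.1, other scalings, filters, a replicate block and leaving out each library were alternatives. A GC offset (loess, span 0.5), DESeq2 without each library and the canonical transcript length were chosen after seeing the data. Within groups, counts of any pair of libraries differed beyond counting error (chi-square over degrees of freedom at least 21.6), so each was 1 replicate. Annotation came from a later GENCODE release of GRCm39. The edgeR and DESeq2 fits were also run on counts simulated from these means, dispersions and library sizes, without a GC trend. The calls made there are not given here.

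The members and lists were chosen with earlier results of these data known. All members were named, and from each list, for either direction, the 2 of smallest p among those averaging 10 counts or more, beside 16 genes named in any case, of which 1 is not reported here. Likeness used genes averaging 100 counts or more, with 2 as the prior count of log2 CPM.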

Additional observations from a re-analysis of the deposited data

How the results depend on the processing

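In edgeR and limma-voom, 0 of 10 members passed the threshold under every alternative run, against 3 in DESeq2. The count over all genes, 0 as reported, was 1 with upper quartile scaling, 38 with no filter beyond 1 count, 1 with a GC content offset, 526 in DESeq2, and 0 to 2 with 1 library left out. With the replicate number as a block it was 1. Same-numbered libraries of the groups correlated at -0.042, 0.18 and 0.12 in their deviations from the group means, and the other pairs at -0.218 to 0.121, so a pairing was neither shown nor tested further. Blocking kept the sign of every member (Itgb7 0.33, Itgav -0.53, Cd44 -0.29). The integrin activation and adaptor list and the list of other adhesion and homing receptors, each at 0 in edgeR, each had 1 call in DESeq2. In DESeq2, the offset for GC content gave 0 members, 292 genes, 0 activation and adaptor genes and 2 other adhesion and homing receptors. Leaving out 1 library there gave 0 to 3 members, 179 genes (without WT 3) to 1413 genes (without KO 2), 0 to 2 other integrin chains, 0 to 5 activation and adaptor genes, 0 to 1 ligands, 0 to 2 Cd44 linkers, splicing factors and sheddases, and 0 to 3 other adhesion and homing receptors. The cause of these shifts was not tested.

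The direction turned in members whose groups overlapped. With 1 library left out, the log2 fold change ran from -0.013 to 0.165 in edgeR and -0.012 to 0.160 in DESeq2 for Itga6, from -0.13 to 0.13 in edgeR and -0.14 to 0.12 in DESeq2 for Itgb1, and from -0.141 to 0.0746 in edgeR and -0.146 to 0.0595 in DESeq2 for Itgb3. The difference of the Itgal to Itgb2 ratio ran from -0.102 to 0.0016. With the GC trend taken out, an alternative chosen after seeing the data, the difference of the Itga4 to Itgb7 ratio turned from -0.15 to 0.0079, and the other 7 ratios kept their direction. With the GC offset Itgb1 was at 0.0075 in both tools. Itgae, Itgal, Itga4, Itgav, Itgb2, Itgb7 and Cd44 kept their sign under every alternative run, and 5 members were without overlap under each scaling. With 8279 or more counts per member and library, the spread between libraries and not the depth sets the intervals.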
